A study of Mus musculus with 19 samples.

Results

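CD4 T cells that showed both an IL-2 reporter and a Foxp3 reporter (GFP+RFP+, 4 arrays) were compared with CD4 T cells that showed the IL-2 reporter alone (GFP+RFP-, 5 arrays). The arrays were chosen by the reporter colours in their titles, 9 of the 19 in the series, and the comparison asks how cells marked as regulatory differ from other cells when both show the IL-2 reporter. The other 10 arrays held cells that did not show the IL-2 reporter, 5 GFP-RFP+ and 5 GFP-RFP-. All cells came from spleen and lymph nodes of adult female C57Bl/6 mice with the genotype Tg IL-2-GFP x FOXP3mRFP, so every group carried both reporter alleles and the groups differed by which colours the cells showed. The subtype label calls the GFP+RFP+ cells regulatory, whereas a cell type tag calls all samples conventional, so the populations are named here by colour. The RNA was amplified by a global PCR and hybridized in 1 colour to whole-genome oligonucleotide arrays. Nothing in the labels ties each replicate to an animal of its own, and the p-values therefore cover spread among the samples given, part or all of which may be technical.

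Regulatory T cells (Treg) restrain immune responses and depend on the transcription factor Foxp3, which is encoded on the X chromosome. They carry a high-affinity receptor for IL-2 and rely on IL-2 made by other T cells, since Foxp3 represses the Il2 gene in most of them. A cell that carries both a Foxp3 and an IL-2 reporter is therefore an uncommon population, and a fluorescent reporter can outlast the messenger RNA it stands for.

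Each probe on the array is 60 bases long. For several of the genes that were lower in GFP+RFP+ cells, a second probe of the same gene was also measured, and both are shown because the second was bright in GFP+RFP- cells for some of these genes and at background for others. The first 30 bases of each are printed 5′ to 3′ as the files hold them, with mm9 coordinates and the strand given for the whole probe. Foxp3 and the T cell receptor alpha constant region are shown because they check the sort and the lineage.

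Hmox2, probe used, chr16:4766093-4766152, plus strand: gtactacatgtgaaggacctgtcatgttgt
Hmox2, other probe, chr16:4764971-4765030, plus strand: gcatgtggacaatgcccagcaattcaagca
Timm9, probe used, chr12:72226471-72226530, minus strand: gggaacctacaataaacttacagaaacctg
Timm9, other probe, chr12:72236700-72236759, minus strand: cttccttgaggctagactttgaatcgggaa
Hipk3, probe used, chr2:104266761-104266820, minus strand: gtctattacagtttgcgatagtatttctct
Hipk3, other probe, chr2:104269963-104270022, minus strand: catatatgtgaaaactcgaaagcagtctat
Smarcd2, probe used, chr11:106124840-106124899, minus strand: ccttctttttgggtatttgcactatttggg
Smarcd2, other probe, chr11:106125412-106125471, minus strand: aagctgaagcctgaggcttgctttgtcgtc
Tspan14, probe used, chr14:41719999-41720058, minus strand: cttctttataacttgtatctgtccttaccg
Foxp3, probe used, chrX:7172301-7172360, plus strand: attatgtgttggagtgtgcctgaacagctc
T cell receptor alpha constant, probe used, chr14:54841802-54842701, plus strand: tgactgagaaaagctttgaaacagatatga

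The span of the last probe is longer than its 60 bases. Whether it crosses an intron was not checked, since no gene models of this build were used here.

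The 9 arrays differed in brightness and in how many probes they measured. Brightness was taken as the 75th percentile of signal over probes detected (well above background) on all 19 arrays. It was 4140, 5858, 5100 and 5963 intensity units on the GFP+RFP+ arrays. The values were 14980, 15291, 12543, 7768 and 13185 units on the GFP+RFP- arrays. The groups did not overlap, and within each of the 3 slides every GFP+RFP+ array was dimmer than every GFP+RFP- array (mean difference -1.25 on the log2 scale, exact permutation test, two-sided p = 0.016, 0.032 adjusted over 2 array properties). The share of probes detected was 26.08% to 38.05% on GFP+RFP+ arrays and 30.17% to 41.05% on GFP+RFP- arrays, which overlapped (means 32.2% ± 4.94 and 36.9% ± 4.29, SD, n = 4 and 5, exact permutation p = 0.19). Signals below are intensity units as deposited, and log2 differences are taken after each array was set relative to its own 75th percentile. On that scale the median difference over all 20541 genes tested was 0.215, against -1.04 without scaling.

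Foxp3, the gene of the red reporter, did not separate the populations. It was well above background on all 9 arrays, at 62.0, 130.2, 103.5 and 37.0 units on GFP+RFP+ arrays and 64.0, 67.2, 87.2, 65.6 and 38.7 units on GFP+RFP- arrays. The lowest of the 9 values was on a GFP+RFP+ array and the highest was too. The scaled log2 difference was 1.51 ± 1.17 (SE, limma, adjusted p = 0.52), against 0.26 without scaling. For comparison, 1 of the GFP-RFP+ arrays, replicate 3, gave 13970 units with the same probe. That array was the brightest of the 5 GFP-RFP+ arrays (75th percentile 11713 units, against 3826 to 7701). A single array does not show how the probe reads in GFP-RFP+ cells in general.

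Il2, the gene of the green reporter, was detected on 1 of 4 arrays in GFP+RFP+ cells and 2 of 5 in GFP+RFP- cells. Its signal was 6.27, 14.5, 5.25 and 98.0 units in GFP+RFP+ cells and 5256, 12.1, 9.07, 6.25 and 1100 units in GFP+RFP- cells. Both bright values came from GFP+RFP- cells, in replicates 1 and 5, and the other 3 GFP+RFP- arrays lay among the GFP+RFP+ values. The difference was -1.24 ± 2.07 (SE, limma, adjusted p = 0.79) and it ranged from -2.09 to 0.18 when each array was left out in turn.

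Other genes typical of Treg gave no call in the main fit either. Of 26 listed Treg-enriched genes, 23 passed the filter on detection, 13 of them higher and 10 lower in GFP+RFP+ cells. The median difference was 0.70, against 0.215 over all genes, and no member was called. That median turned to -0.39 without GFP+RFP- replicate 4 (all genes 0.077) and was -0.37 within slide 1. It was 0.09 and 0.391 without GFP+RFP+ replicates 5 and 3 (all genes 0.303 and 0.267), and 0.281 without GFP+RFP- replicate 3 (all genes 0.257). Without GFP+RFP+ replicates 1 and 4 it was 0.911 and 0.644 (all genes 0.093 and 0.255). Without GFP+RFP- replicates 1, 2 and 5 it was 0.923, 0.795 and 1.01 (all genes 0.368, 0.185 and 0.302). Over the 6 members detected on all 9 arrays it was 1.13 (all such genes 0.471), with 2 called. Members were also called after normexp (3), with array weights (2), a common floor (2) and a trended robust prior (1). Swap70, a regulator of actin and Rac, had 811.5, 7420, 2830 and 1306 units in GFP+RFP+ cells against 1121, 662.6, 1048, 559.5 and 777.1 units in GFP+RFP- cells. Its difference was 2.68 ± 0.71 (SE, limma, adjusted p = 0.10). Icos, a costimulatory receptor, was detected on 1 of 4 arrays in GFP+RFP+ cells and 5 of 5 in GFP+RFP- cells (-5.31 ± 1.85, adjusted p = 0.17). Il2ra, the alpha chain of the IL-2 receptor, was detected on 2 of 4 arrays in GFP+RFP+ cells and 1 of 5 in GFP+RFP- cells. Gpr83, a Treg-enriched receptor, was detected on 0 of 4 arrays in GFP+RFP+ cells and 1 of 5 in GFP+RFP- cells.

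Most defining T cell genes were measured in both groups. Of 11 found on the array by symbol, Cd3d, Cd3g, Cd4, Cd5, Lck, Bcl11b and Thy1 were well above background on all 9 arrays. Cd3e, Cd2 and Cd28 were detected on 3 of 4 arrays in GFP+RFP+ cells and 4 of 5 in GFP+RFP- cells, and Cd247 on 1 of 4 and 5 of 5. Of these 11, 7 were lower (median difference -0.89) and none was called. The T cell receptor alpha constant region was not found by symbol and is not counted among them. Its probe was called lower (-2.25), as given below. Of the same 11 genes, 8 to 11 were detected on each GFP+RFP+ array and likewise 8 to 11 on each GFP+RFP- array. Their summed signal was 638% to 1280% and 912% to 1660% of the array's 75th percentile. B cell markers had summed signals of 17.8% to 98.4% on GFP+RFP+ and 54.1% to 237% on GFP+RFP- arrays, with 5 to 6 and 6 to 8 of 11 genes detected. Markers of NK and CD8 T cells had 28.5% to 173% and 42.2% to 117%, with 3 to 5 and 5 to 8 of 11 detected. Markers of myeloid and dendritic cells had 1830% to 3550% and 1070% to 1490%, a sum to which the probe of the integrin Itgam gave 66370 to 104700 units on GFP+RFP+ and 92370 to 106400 units on GFP+RFP- arrays. Their part in the results was not tested.

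Across the genome, 42 of 20541 genes differed between GFP+RFP+ and GFP+RFP- cells at a limma adjusted p under 0.05, or 0.204% of genes tested, and 3583 had an unadjusted p under 0.05. Of the 42, 18 were higher (0.0876%) and 24 lower (0.117%), so 42.9% were higher. That split moved with the scaling. The share higher was 0% with the percentile over all probes (10 called), 28% after quantile normalization (25 called), 3.12% with the array median subtracted (32 called), 22.7% in the authors' series table (22 called), 94.4% after normexp background correction (5004 called) and 0% without scaling (251 called). The direction of every one of the 42 was the same under these 6 settings.

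The count also rested on single arrays. Leaving out GFP+RFP+ replicate 1, 3, 4 or 5 gave 17, 13, 2 or 39 calls. Leaving out GFP+RFP- replicate 1, 2, 3, 4 or 5 gave 7, 10, 18, 300 or 9. Of the 42 genes, 11, 9, 2 and 23 were still called without GFP+RFP+ replicates 1, 3, 4 and 5, and 7, 8, 15, 42 and 9 when the same was done with GFP+RFP- replicates 1 to 5. The genes that kept their call without any 1 array were Timm9 and Tspan14. Within slide 1 limma called 0 genes (3085 at an unadjusted p under 0.05), while slides 2 and 3 held 1 GFP+RFP+ array each. All 42 kept their direction in each slide. That was largely fixed by the selection, since scaled values did not overlap for 23 of the 24 lower and all 18 higher genes.

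The 24 genes called lower were bright in GFP+RFP- cells and mostly at or near background in GFP+RFP+ cells. By the probe used for each gene, 13 were well above background on no GFP+RFP+ array, 8 on some and 3 on all 4. All 24 were so on each of the 5 GFP+RFP- arrays. For the 13 the level in GFP+RFP+ cells is only bounded, and they are given as "at least N-fold lower". The mean of the GFP+RFP- arrays is set against the higher of 2 levels on each GFP+RFP+ array. These are the gene's own value and the lowest level well above background of any probe. A probe can go undetected above that lowest level, as Ranbp2 did at 18.8 units on GFP+RFP+ replicate 3 (lowest level 8.98). The bounds therefore hold under this definition only. Those bounds ran from 11.8-fold to 582-fold. For the 8 detected on some arrays, the log2 difference is a fitted value that rests in part on such levels. After scaling, the values of the groups did not overlap for 23 of the 24, against 1.46% of all genes that were lower without overlap, and in unscaled signal none of the 24 overlapped, against 8.75% of all genes. The folds describe signal of PCR-amplified material and give no transcript amount per cell. In these sorted populations fewer cells that express a gene and less RNA per cell cannot be told apart. The part of the amplification and of the dimmer GFP+RFP+ arrays in these decreases was not tested.

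**Figure D1:**
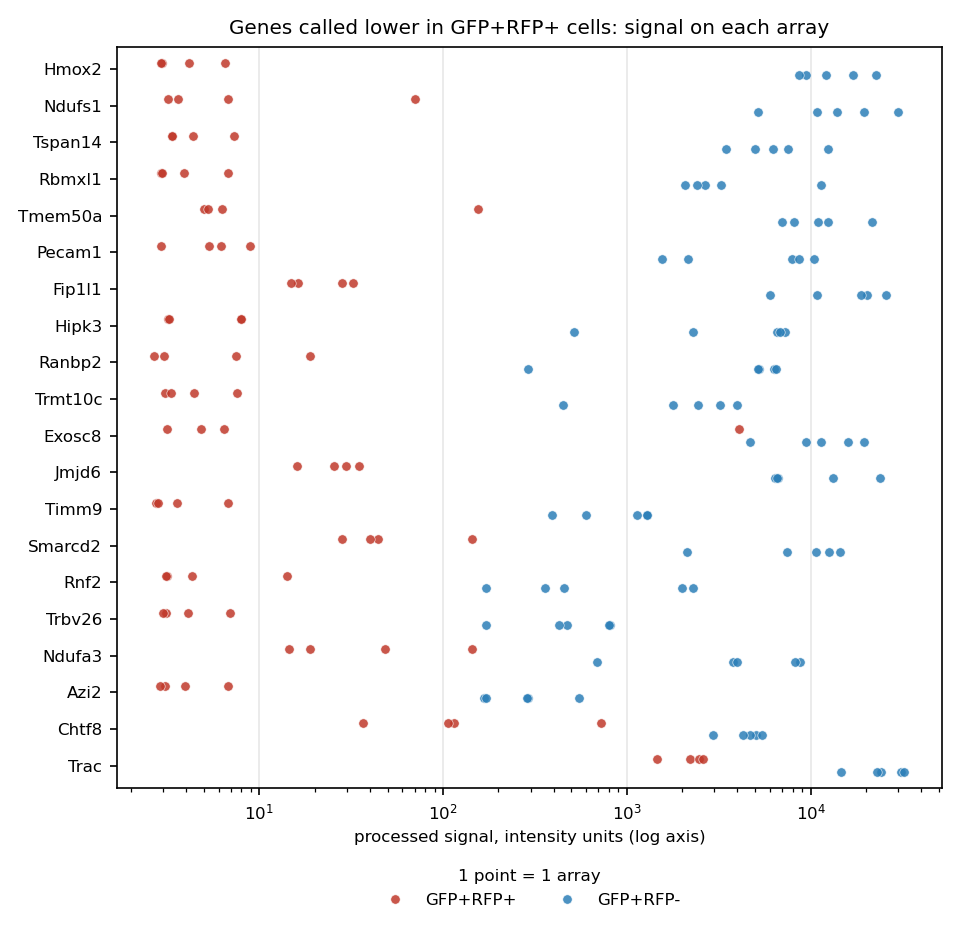
Processed signal in intensity units (log axis) of the 18 named genes and the 2 T cell receptor segments called lower in GFP+RFP+ cells, ordered by their log2 difference. Each point is 1 array, GFP+RFP+ (red, 4 arrays) above GFP+RFP- (blue, 5 arrays), and the single GFP+RFP+ point near the blue range is Exosc8 in replicate 3, at 4061 units.

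Genes of mitochondria stood among the 24. Timm9, a small chaperone of the mitochondrial intermembrane space that escorts imported membrane proteins, had the smallest p of all genes. It gave 6.75, 3.59, 2.74 and 2.80 units in GFP+RFP+ cells and 600.2, 392.6, 1143, 1282 and 1296 units in GFP+RFP- cells. With the probe used, no GFP+RFP+ value was well above background and every GFP+RFP- value was. The difference was at least 37.9-fold (limma, adjusted p = 6.2e-05, at most 0.00073 without any 1 array).

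Ndufs1, the largest core subunit of respiratory complex I, had 6.76, 3.59, 3.21 and 70.6 units in GFP+RFP+ cells, against 10850, 30110, 13920, 5188 and 19430 units in GFP+RFP- cells. The 1 GFP+RFP+ array above background was replicate 5, and it lay far below all GFP+RFP- arrays (-9.37 ± 1.5, SE, adjusted p = 0.023). Ndufa3, an accessory subunit of the same complex, had 14.4, 48.1, 143.3 and 19.0 units in GFP+RFP+ cells and 8813, 692, 3808, 8268 and 3973 units in GFP+RFP- cells. It was detected on 3 of 4 GFP+RFP+ arrays (-5.42 ± 1.04, adjusted p = 0.047).

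Trmt10c, a subunit of the mitochondrial RNase P that processes and methylates tRNA, was at least 84.7-fold lower in GFP+RFP+ cells (adjusted p = 0.011). Its signal was 3.05 to 7.60 units in GFP+RFP+ cells and 451.4 to 3974 units in GFP+RFP- cells. Mrps6, a protein of the small mitochondrial ribosomal subunit, missed the threshold narrowly. It read 6.44, 3.60, 10.6 and 2.69 units in GFP+RFP+ cells against 25190, 15610, 24500, 25750 and 7415 units in GFP+RFP- cells, at least 752-fold lower, with an adjusted p of 0.052 (limma).

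Hmox2, the constitutive haem oxygenase that breaks haem down, gave the largest bound among the calls. It had 6.48, 4.14, 2.95 and 2.93 units in GFP+RFP+ cells, against 9500, 12110, 17030, 8604 and 22750 units in GFP+RFP- cells. The probe used was above background on no GFP+RFP+ array, and the difference was at least 582-fold (adjusted p = 0.04). The call was lost in 8 of the 9 fits that left out 1 array, with an adjusted p of at most 0.12.

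Several of the 24 act on RNA or chromatin. Rbmxl1, an RNA-binding protein related to the splicing regulator Rbmx, was at least 154-fold lower in GFP+RFP+ cells (2.93 to 6.77 units, against 2084 to 11460 in GFP+RFP- cells, adjusted p = 0.027). Fip1l1, a subunit of the polyadenylation machinery, had 28.1, 16.3, 32.2 and 14.9 units in GFP+RFP+ cells and 25600, 20260, 6020, 10840 and 18910 units in GFP+RFP- cells (-8.14 ± 1.48, SE, adjusted p = 0.037). The groups lay far apart although 2 of 4 GFP+RFP+ arrays were above background.

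Exosc8, a core subunit of the RNA exosome, was the one gene of the 24 whose scaled values overlapped. It had 6.43, 4061, 4.84 and 3.16 units in GFP+RFP+ cells and 9497, 11390, 4674, 16030 and 19640 units in GFP+RFP- cells (-7.52 ± 1.44, SE, adjusted p = 0.047). Replicate 3 of GFP+RFP+ reached nearly the signal of GFP+RFP- replicate 3 and the other 3 GFP+RFP+ arrays were at background. Ranbp2, a nuclear pore protein, was at least 118-fold lower (adjusted p = 0.028).

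Smarcd2, a subunit of the SWI/SNF chromatin remodelling complex, was above background on all 9 arrays. It had 44.1, 40.0, 28.1 and 143.3 units in GFP+RFP+ cells and 10680, 14400, 7468, 2132 and 12680 units in GFP+RFP- cells. The groups did not overlap, and the difference was -6.01 ± 0.87 (SE, adjusted p = 0.011). Jmjd6, an oxygenase that modifies lysine and arginine of RNA-binding proteins and histones, was detected on 3 of 4 GFP+RFP+ arrays (16.1 to 34.9 units, against 6435 to 23960 in GFP+RFP- cells, -7.33 ± 1.06, adjusted p = 0.011). Rnf2, a ubiquitin ligase of the Polycomb repressive complex that marks histone H2A, was at least 29.6-fold lower (adjusted p = 0.028). Chtf8, which helps load the replication clamp, was also detected on all 9 arrays (36.5 to 725.3 units, against 2951 to 5477, -3.78 ± 0.74, adjusted p = 0.049).

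Membrane and signalling proteins made up the rest of the named genes. Tspan14, a tetraspanin that partners with the protease ADAM10, had 7.31, 4.38, 3.34 and 3.33 units in GFP+RFP+ cells, against 7527, 6234, 4996, 12390 and 3455 units in GFP+RFP- cells. No GFP+RFP+ array was above background, the difference was at least 281-fold (adjusted p = 0.0059), and the adjusted p was at most 0.043 without any 1 array. Pecam1, the adhesion molecule CD31, had 8.91, 5.35, 6.16 and 2.93 units in GFP+RFP+ cells and 7941, 1555, 8601, 10500 and 2143 units in GFP+RFP- cells. It was at least 211-fold lower (adjusted p = 0.023). Among 15 adhesion genes tested 12 were lower, with a median difference of -2.11 and Pecam1 as the call. Among 14 tetraspanins 11 were lower, with a median of -1.04 and Tspan14 as the call. The medians were -1.66 and -0.09 over the members detected on all 9 arrays (8 and 5 genes), against 0.471 over all such genes.

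Tmem50a, a transmembrane protein, had 6.24, 154.3, 5.03 and 5.26 units in GFP+RFP+ cells, against 12380, 21590, 6992, 8174 and 10990 units in GFP+RFP- cells (-8.53 ± 1.30, SE, adjusted p = 0.017). Only replicate 3 of GFP+RFP+ was above background. Hipk3, a kinase of the homeodomain-interacting family, had 7.92, 7.97, 3.18 and 3.24 units in GFP+RFP+ cells and 2296, 7279, 6572, 6782 and 518.6 units in GFP+RFP- cells, at least 147-fold lower (adjusted p = 0.02). Azi2, an adaptor of the kinase TBK1, had the smallest bound of the 13, at least 11.8-fold (adjusted p = 0.028).

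T cell receptor transcripts were among the lower calls too. The probe of the T cell receptor alpha constant region was bright on all 9 arrays, with 2203, 1458, 2475 and 2612 units in GFP+RFP+ cells and 31030, 32460, 24230, 14720 and 22970 units in GFP+RFP- cells. The groups did not overlap, and the scaled difference was -2.25 ± 0.41 (SE, adjusted p = 0.037), the smallest of the 24. A segment that the files describe as T cell receptor beta variable 26 was at least 20.8-fold lower. Cd247, the zeta chain of the T cell receptor complex, was detected on 1 of 4 arrays in GFP+RFP+ cells and 5 of 5 in GFP+RFP- cells. It had 6.63, 10.6, 11.4 and 2664 units in GFP+RFP+ cells against 37390, 36220, 13100, 27650 and 17420 units in GFP+RFP- cells, and did not pass the test (-8.06 ± 2.10, adjusted p = 0.10). The other 4 lower calls without a usual symbol were 2 long intergenic RNA intervals, a predicted gene and a transcript that the files describe as similar to a dynactin subunit. The predicted gene lies at chr14:53540714-53540773, on the chromosome and strand of the alpha constant probe. Its 2 probes differed by -5.87 and -4.28. Whether it is a T cell receptor segment was not checked.

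A second probe had passed the filter for 7 of the genes called lower with a usual symbol. The fitted difference of the other probe was below 0 in 4 (Hmox2, Rbmxl1, Ndufa3 and Fip1l1) and above 0 in 3 (Timm9, Hipk3 and Smarcd2). The other Hmox2 probe, 1122 bases away, had 7.81, 4.94, 3.63 and 729.9 units in GFP+RFP+ cells and 2741, 7848, 2073, 2474 and 5667 units in GFP+RFP- cells, the same direction at a smaller size (-6.41). For Fip1l1 the other probe differed by -0.15.

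The other Timm9 probe, 10229 bases away, gave 43.9, 3.70, 2.77 and 1115 units in GFP+RFP+ cells and 7.57, 5320, 5.89, 3.32 and 5.13 units in GFP+RFP- cells. It was above background on 2 of 4 and 1 of 5 arrays and its difference was 1.60. The other Hipk3 probe, 3202 bases away, was detected on 2 of 4 arrays in GFP+RFP+ cells and 0 of 5 in GFP+RFP- cells (3.41). The other Smarcd2 probe, 572 bases away, was dim throughout, at 7.89 to 83.5 units in GFP+RFP+ cells and 7.03 to 38.4 units in GFP+RFP- cells (1.84). In GFP+RFP- cells these other probes were above background on 1 of 5 arrays for Timm9, 0 of 5 for Hipk3 and 1 of 5 for Smarcd2, so they could not show a decrease. In GFP+RFP+ cells each was above background on 2 of 4 arrays, the Hipk3 probe at 81.6 and 121.9 units. The remaining GFP+RFP+ values were at background. Scaling raises all values by 1.25 in GFP+RFP+ cells, and its part in these positive differences was not tested.

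**Figure D2:**
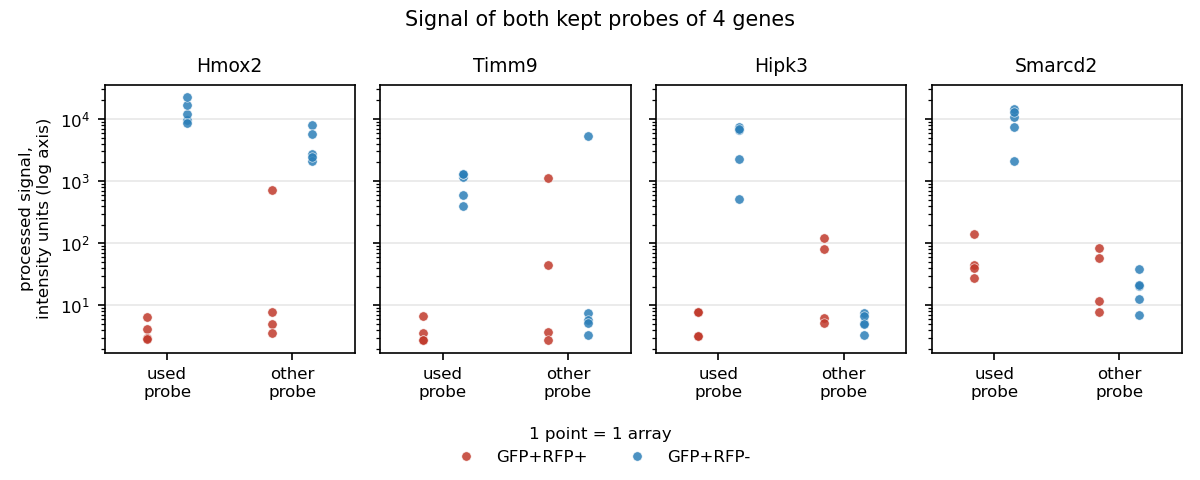
Processed signal in intensity units (log axis) of both kept probes of Hmox2, Timm9, Hipk3 and Smarcd2, 1 point per array, GFP+RFP+ (red) left of GFP+RFP- (blue). The probe used separates the groups in all 4 genes, whereas the other probe does so in Hmox2 only.

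The 18 probes called higher in GFP+RFP+ cells differed by far less, 1.86 to 2.90 on the log2 scale, and 2 of them belong to a gene with a usual symbol. Fam178b, whose function is not well described, had 415.2, 423.2, 396.6 and 347.7 units in GFP+RFP+ cells and 227.9, 227.2, 119.6, 137.9 and 319 units in GFP+RFP- cells. It was higher on every GFP+RFP+ array (2.28 ± 0.40, SE, limma, adjusted p = 0.028, and 1.03 without scaling). Pnma2, a retrotransposon-derived gene known as a paraneoplastic antigen, had 970, 1420, 1595 and 1304 units in GFP+RFP+ cells and 890.2, 787, 1041, 694.7 and 818 units in GFP+RFP- cells. Its unscaled values overlapped (1.89 ± 0.37, adjusted p = 0.049, and 0.63 without scaling).

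The transcript AK132990 had 82.3, 72.7, 103.1 and 80.6 units in GFP+RFP+ cells and 27.2, 25.1, 36.4, 23.6 and 33.3 units in GFP+RFP- cells, with no overlap (2.80 ± 0.46, adjusted p = 0.023, and 1.55 without scaling). The other 15 were 10 probes that the files leave unnamed, 2 RIKEN transcripts, another full-length cDNA and 2 long intergenic RNA intervals. Without scaling, the 18 differences were 0.61 to 1.65, beside the 1.25 by which the scaling raises every gene in GFP+RFP+ cells. After scaling all 18 were without overlap, against 6.37% of all genes. In unscaled signal 14 of the 18 still did not overlap between the groups, against 0.458% of all genes that were higher without overlap. None of the 18 passed the test without scaling, and none kept its call in all 9 fits that left out 1 array. The dimmer signal of the GFP+RFP+ arrays moves with these increases, and its part in them was not tested.

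**Figure D3:**
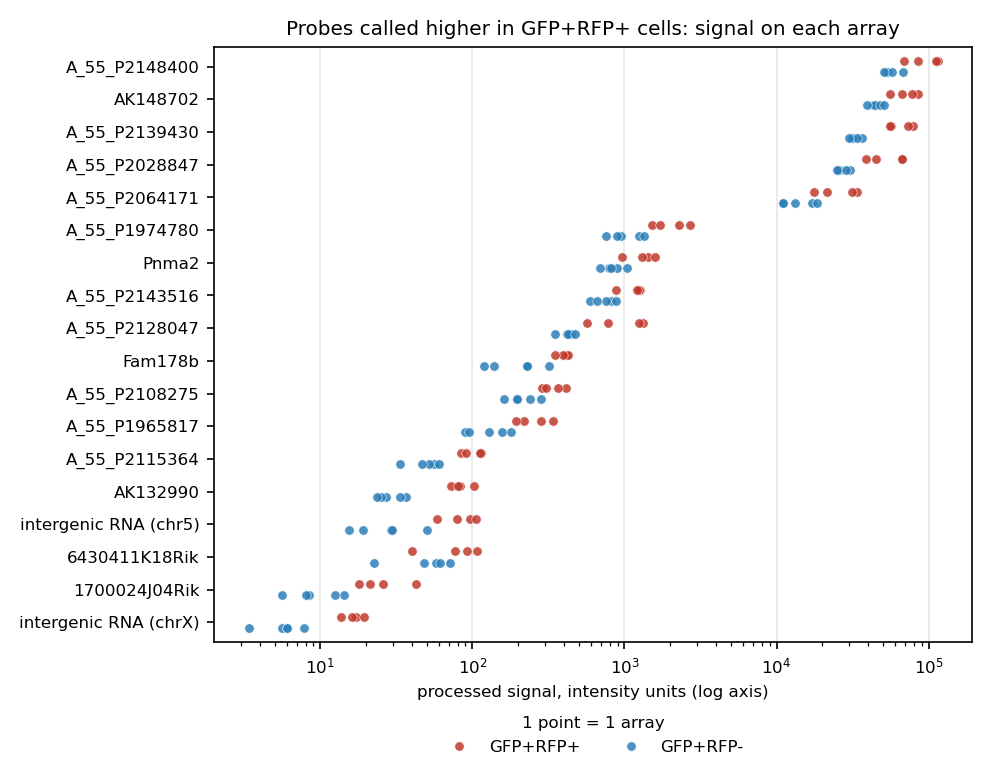
Processed signal in intensity units (log axis), before scaling, of the 18 probes called higher in GFP+RFP+ cells, 1 point per array, GFP+RFP+ (red) above GFP+RFP- (blue). For 14 of the 18 the red points all lie to the right of the blue ones, by 0.61 to 1.65 on the log2 scale in all 18.

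The detection flag does not depend on scaling between arrays, but it can move with the brightness of an array. Over all genes tested, 63.3% of flags were positive on the dimmer GFP+RFP+ arrays and 71.6% on the GFP+RFP- arrays. The part of brightness in the counts below was not tested. By this flag for the probe used, 84 genes (0.409% of those tested) were detected on 0 of 4 arrays in GFP+RFP+ cells and on 5 of 5 in GFP+RFP- cells. Of these, 64 have a usual symbol. In the opposite direction there were 5 (0.0243%): Rhox3e, Rsph6a, D7Wsu130e, 4930593A02Rik and an unnamed probe, none of them called. The 6 of the 84 with the largest fitted differences were Mrps6, Hmox2, Amz2, Tspan14, Smim20 and Rbmxl1. Those differences are taken against levels not above background, so their order has no exact meaning. Of the 84, 13 were among the limma calls.

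The comparison of GFP-RFP+ with GFP-RFP- cells, which do not show the green colour, used 10 other arrays and so shares none with the calls above, although all 19 arrays share 1 estimate of the spread. There limma called 383 genes (1.86%), 111 higher (0.54%) and 272 lower (1.32%). All 24 genes lower in GFP+RFP+ cells were also below 0 in GFP-RFP+ cells, against 57.0% of all genes, and 15 of them were called lower there too, which is 62.5% of the 24 and 5.51% of the 272. Of the 18 higher in GFP+RFP+ cells, 17 were above 0 in GFP-RFP+ cells, against 43.0% of all genes, and 11 were called there, which is 61.1% of the 18 and 9.91% of the 111. The arrays of this comparison differed in brightness in the same direction, with a 75th percentile of 3826 to 11713 units on GFP-RFP+ arrays and 11644 to 17256 on GFP-RFP- arrays. They detected 22.01% to 39.4% and 37.8% to 44.86% of probes, and the part of either in the shared directions was not tested.

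Single genes give the values behind these counts. The Timm9 probe used was detected on no RFP+ array of either kind. It had 3.06 to 5.25 units in GFP-RFP+ cells and 300.5 to 937.5 units in GFP-RFP- cells (limma, adjusted p = 2.8e-05). Pecam1 had 5.51, 403.6, 5.57, 3.22 and 7.17 units in GFP-RFP+ cells and 1402 to 29160 units in GFP-RFP- cells (adjusted p = 0.0092). Since the probes used for both genes are mostly at background in RFP+ cells, the sizes of their differences in the 2 comparisons cannot be set against each other. Smarcd2 differed by -6.01 ± 0.87 in GFP+ cells and -1.01 ± 0.82 in GFP- cells (adjusted p = 0.011 and 0.49), and Chtf8 by -3.78 ± 0.74 and -0.42 ± 0.70 (adjusted p = 0.049 and 0.76). A call in one comparison only does not show that the differences differ. The interaction was -5.00 for Smarcd2 (limma, adjusted p = 0.57) and -3.36 for Chtf8 (adjusted p = 0.90), and it passed for none of the 42 genes, with 7 at an unadjusted p under 0.05 (5 lower and 2 higher). Over all genes the interaction passed for 2 (0.00974%), Msl3 and Coq10a, neither of them called between GFP+RFP+ and GFP+RFP- cells.

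**Figure D4:**
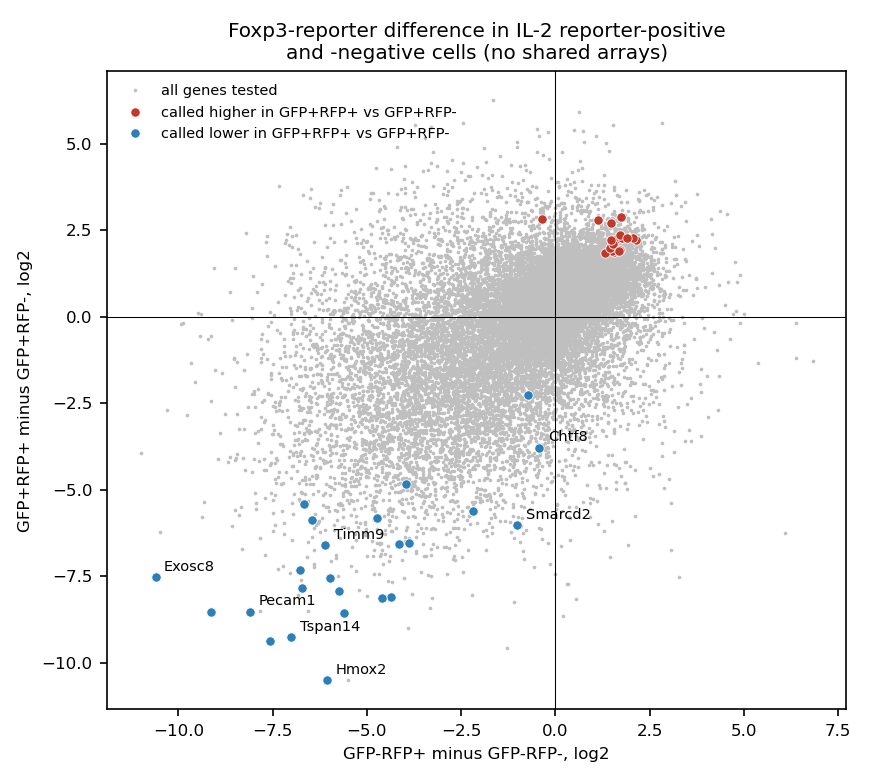
Log2 difference of GFP+RFP+ minus GFP+RFP- cells (vertical axis) against GFP-RFP+ minus GFP-RFP- cells (horizontal axis), 1 point per gene, with 20541 genes in grey, the 18 called higher in red and the 24 called lower in blue. All 24 blue points lie below 0 on both axes and 17 of the 18 red points lie above 0 on both.

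The gene lists put these calls among their pathways. Their median differences are read against the median of all genes, 0.215, because scaling moves both. Over all genes 9071 of 20541 were lower, and the medians include members at background on some arrays. Of 37 listed subunits of respiratory complex I, 33 passed the filter. In GFP+RFP+ cells 24 of them were lower and 9 higher, the median was -1.83, and Ndufs1 and Ndufa3 were called. Relative to all genes the median was -2.04, between -2.29 and -1.44 under the 8 scalings and background settings tried. It was -0.57 over the 6 members detected on all 9 arrays, and -1.55 when each array's detected share was a covariate, where no member was called. Ndufb11, another subunit, was among the members with the smallest p and did not pass.

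The other complexes of the respiratory chain and ATP synthase had 29 of 38 members lower (median -2.30), with none called. On the arrays, 17 to 29 of these 38 genes were well above background in GFP+RFP+ cells and 24 to 36 in GFP+RFP- cells. Of 52 mitochondrial ribosomal proteins 39 were lower (median -1.37), with none called. Enzymes of glycolysis and the citrate cycle had 20 of 26 lower (median -0.92), with none called. Among members detected on all 9 arrays, the medians of these lists were -0.70 (9 genes), -0.49 (13) and -0.51 (11) in that order. All genes so detected had a median of 0.471. Cytosolic ribosomal proteins differed little: 38 of 61 were higher and 23 lower, the median was 0.20, and 60 to 61 were detected on every array of either group. Relative to all genes that median was -0.01, and it changed sign between scalings (-0.61 to 0.20).

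Haem synthesis and breakdown genes were the list whose detection did not overlap between groups. Of its 10 members that passed, 2 to 4 were well above background on each GFP+RFP+ array and 6 to 9 on each GFP+RFP- array. Hmox2 was called, and Blvra, the biliverdin reductase that acts after it, was among those with the smallest p. The list's median was -0.69, with 7 of 10 members lower. Over all genes tested, 53.3% to 70.6% were detected on GFP+RFP+ arrays and 61.6% to 77.8% on GFP+RFP- arrays.

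Proteasome subunits had 26 of 36 members lower (median -2.05) and splicing factors 36 of 44 (median -1.38), with Rbmxl1 the only call in either list. Relative to all genes these medians stayed below 0 within each of the 3 slides, at -1.72, -2.41 and -1.02 for proteasome subunits and -1.49, -2.01 and -0.64 for splicing factors. With only members detected on all 9 arrays, the medians were -1.22 (16 proteasome subunits) and -0.49 (24 splicing factors), against 0.471 over all such genes. Psmd8, a lid subunit of the proteasome, was detected on 0 of 4 arrays in GFP+RFP+ cells and 4 of 5 in GFP+RFP- cells (adjusted p = 0.075).

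Among genes of T cell activation, early T cell receptor response genes had 12 of 15 members lower (median -1.81), with none called. Over the 3 members detected on all 9 arrays the median was also -1.81, against 0.471 over all such genes. Junb, a subunit of the AP-1 factor, had 453.9, 3.42, 5.17 and 8.89 units in GFP+RFP+ cells and 12330, 224.3, 8060, 2790 and 13350 units in GFP+RFP- cells, with GFP+RFP+ replicate 1 above GFP+RFP- replicate 2 (-6.62 ± 2.20, SE, adjusted p = 0.15). Ier2, another immediate early gene, was detected on 0 of 4 arrays in GFP+RFP+ cells and 4 of 5 in GFP+RFP- cells (adjusted p = 0.15). Each GFP+RFP+ array detected 6 to 10 of the 15 genes and each GFP+RFP- array 10 to 15.

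Type I interferon response genes had 12 of 15 members lower (median -2.23), with none called. Only 1 member was detected on all 9 arrays (-1.44, against a median of 0.471 over all such genes). Ifit1, an interferon-induced RNA-binding protein, had 6.48, 177.3, 5.00 and 12.8 units in GFP+RFP+ cells and 1858, 6485, 2047, 3242 and 2716 units in GFP+RFP- cells, without overlap (-6.23 ± 1.42, SE, adjusted p = 0.071). Relative to all genes the list's median was -2.97, -0.11 and -6.30 within slides 1, 2 and 3. On GFP+RFP+ arrays 6 to 7 of the 15 were detected and on GFP+RFP- arrays 6 to 14.

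Genes of helper lineages gave no call on all arrays with the main scaling. Maf, a transcription factor of Th2 and follicular helper cells, came closest, with 470.6, 7.56, 67.4 and 194.8 units in GFP+RFP+ cells and 7636, 5427, 8300, 2929 and 7788 units in GFP+RFP- cells. The groups did not overlap (-4.93 ± 1.03, SE, adjusted p = 0.056). Maf was called in 12 of 29 other settings, with adjusted p of 0.0084 to 0.81. Follicular helper genes had 6 of 8 members lower (median -2.32). None of the 8 was detected on all GFP+RFP+ arrays, so levels at background enter that median. Of 15 known targets of repression in Treg, 11 were lower (median -0.97). Naive and recirculating T cell genes had 11 of 15 lower (median -0.83), and effector and memory genes 12 of 17 (median -1.20). Over members detected on all 9 arrays these medians were -0.02 (5 genes) and -0.07 (11 genes), against 0.471 over all such genes. The median of the targets of repression was then -0.14 (4 genes), and within slide 2 it was 0.34 (all genes 0.633). The naive and repressed lists share members such as Lef1 and Tcf7. Genes of the IL-2 and STAT5 response were split, 8 higher and 9 lower (median -0.07).

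In the main fit, no member of the lists of other cells was called. Of 8 B cell markers 5 were lower (median -1.24), and Cd79b, part of the B cell receptor, had 7.78, 30.3, 15.6 and 3.17 units in GFP+RFP+ cells and 3930, 356.2, 17850, 224.2 and 1991 units in GFP+RFP- cells (-6.03 ± 1.60, SE, adjusted p = 0.10). The B cell markers Pax5, Cd22 and Ebf1 were higher (0.566, 0.325 and 0.29). Markers of NK and CD8 T cells had 7 of 8 lower (median -0.90). Over members detected on all 9 arrays the medians were 0.307 (4 B cell markers) and 0.349 (2 NK and CD8 T cell markers, 1 of them called). All genes so detected had a median of 0.471. Of 13 genes typical of other organs that passed the filter, 11 were higher after scaling at a median of 0.85, and that median was -0.40 without scaling. The part of other cells in the differences above was not tested.

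**Figure D5:**
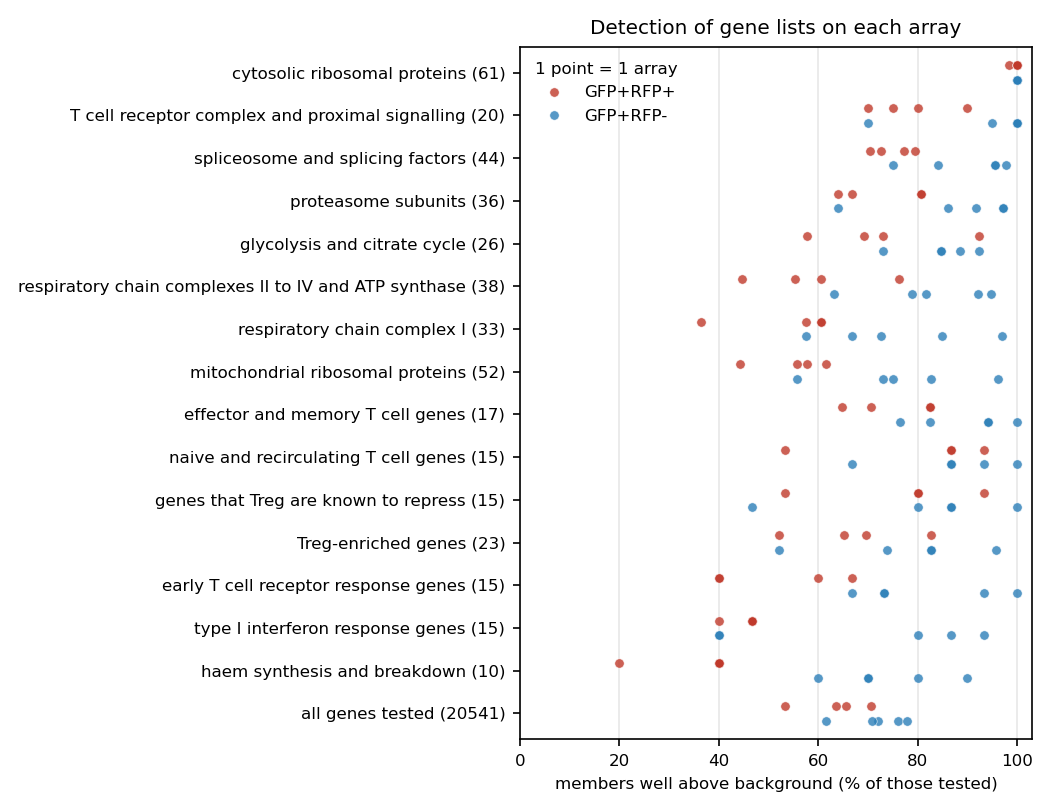
Percent of the tested members of each gene list that were well above background, 1 point per array, GFP+RFP+ (red) above GFP+RFP- (blue), with the number of members tested in brackets. Haem genes do not overlap between the groups (2 to 4 against 6 to 9 of 10), while cytosolic ribosomal proteins were detected on nearly every array (60 to 61 of 61).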

How the data were processed

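The authors deposited 1-colour scanner output as linear intensity, which per the file headers was background-subtracted and not scaled between arrays (Agilent Feature Extraction, version 10.7.3.1). A table of the whole series, also deposited, has log2 values whose columns share a scale ( medians 3.21 to 3.224 on the 9 arrays). How it was normalized is not given in the sources. Coordinates are mm9, per the file headers. Groups came from sample titles, and replicate 2 of GFP+RFP+ is not analysed here.

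Control and outlier spots were left out and repeated spots averaged. Log2 processed signal was set relative to each array's 75th percentile over 6612 probes that the scanner software flagged as detected (well above background) on all 19. The filter asked for detection on at least 4 arrays (28101 probes), and the brightest probe of each gene was used (20541 genes, 11863 with a usual symbol). Many probes were named through RefSeq accessions. All 4 groups entered 1 limma fit (limma 3.58.1 under R 4.3.3, files read with the data.table package at version 1.17.8), with Benjamini-Hochberg adjustment over all genes and calls at an adjusted p under 0.05. The number of arrays limits the precision. Same-numbered GFP+RFP+ and GFP+RFP- arrays deviated together at correlations of -0.026 to 0.094, against -0.108 to 0.051 for arrays of different numbers. These ranges overlap and do not settle whether the numbers mark pairs. The main fit did not use them as pairs, and as a block they left 8 calls, 7 of them among the 42.

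Genes named are Foxp3 and Il2, every called gene with a usual symbol (the others counted), members of each of the 34 lists with the smallest p, and the 6 largest differences with separated detection flags. Il2ra, Gpr83, the T cell identity genes, the T cell receptor segments and AK132990 are named beside that rule, chosen with their values in view. The comparison and the lists were chosen with earlier results of these data known. Alternatives were other scalings and background corrections, filters, probe averaging, blocks, covariates and left-out arrays. Figures used matplotlib 3.10.9, pandas 2.3.3 and Python 3.11.15.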

Additional observations from a re-analysis of the deposited data

Results flagged for a closer look

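Of 92 groups of 4 or 5 values examined, not all of them from called genes, 6 held an array far from the others. Chance alone gives about 1 in 20, so 6 is near that share. Tmem50a in GFP+RFP+ replicate 3 stood above the other GFP+RFP+ arrays, at a log2 signal of -5.25 relative to the array's 75th percentile, and Exosc8 did so on the same array at -0.53. Ranbp2 in GFP+RFP- replicate 3 lay below the other GFP+RFP- arrays at -5.44, and Fip1l1 did so on that array at -1.06. The unnamed probes A_55_P2139430 (3.23) and A_55_P2108275 (-4.28) were far from the other GFP+RFP+ arrays in replicate 5.

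The interaction differed for 2 genes. Msl3, a subunit of a histone acetyltransferase complex, had 2036, 6050, 3969 and 1967 units in GFP+RFP+ cells, 3988, 5919, 3243, 779.9 and 2768 in GFP+RFP- cells, 2.99 to 6.14 in GFP-RFP+ cells and 808.7 to 7372 in GFP-RFP- cells. Its interaction was 9.91 ± 0.83 (SE, limma, adjusted p = 1.3e-05). Coq10a, a coenzyme Q-binding protein of mitochondria, was detected on 1 of 4 arrays in GFP+RFP+ cells, 0 of 5 in GFP+RFP- cells, 0 of 5 in GFP-RFP+ cells and 5 of 5 in GFP-RFP- cells (2039 to 14970 units on the last). Its interaction was 10.5 ± 0.82 (adjusted p = 8.5e-06). Levels at background enter both of these fitted interactions.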

How the results depend on the processing

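The count of 42 called genes (18 higher, 24 lower) moved by over 1.5 times under most settings. None of the 42 had the opposite sign under any setting run. For left-out arrays and single slides this was largely fixed by the selection, as scaled values of 23 lower and 18 higher genes did not overlap. It was 10 with the percentile over all probes, 25 after quantile normalization, 22 in the series table and 5004 after normexp. It was 108 without the detection filter and 593 among genes detected on all 9 arrays. With the 9 arrays alone it was 74 (9.46% higher), with the slide as a block 162 (70.4% higher), with the scan day 12, with a trended robust prior 334, with array weights 1704 and with the percent detected as a covariate 8 (all lower). The replicate block gave 8 (7 of the 42 among them). Within slides 1, 2 and 3 it was 0, 0 and 0. In settings chosen after seeing the data it was 251 without scaling and 493 with a common floor. Leaving out each array gave 2 to 300. Subtracting the median, averaging probes and leaving out arrays under 30% detected gave 32, 32 and 58. The interaction count of 2 became 1 among genes detected on all 9 arrays, 0 within slides 1, 2 and 3, 4 without arrays under 30% detected, and 2 to 6 without 1 array. It was 2 or 3 under every other setting. The cause of these changes was not tested. Values at background on GFP+RFP+ arrays limit 13 of the 24 decreases to bounds.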
